A study of Sus scrofa with 6 samples.

Results

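Calgranulins and other genes of neutrophil granulocytes were examined in the lungs of piglets just before and just after birth. The 8 genes were chosen by symbol: the calgranulin genes S100A8, S100A9 and S100A12, the granule genes ELANE, MPO and LTF, the receptor gene CSF3R and the oxidase gene NCF1. Values were at hand for 7 of these 8 genes, out of 14579 mRNAs in all. MPO (ENSSSCG00000017637), the myeloperoxidase of azurophil granules, was not analysed here.

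The 6 piglets were female hybrids of Tibetan sires and Meishan dams, and each came from a different sow. The fetal group held 3 piglets taken on the last day of gestation (Fetal1 to Fetal3) and the neonatal group 3 piglets aged 2 days (Neonatal1 to Neonatal3). All were exsanguinated after ketamine, and 1 strand-specific library of rRNA-depleted RNA was made from lung tissue of each. Birth and age changed together between the groups and cannot be told apart, and whole tissue was sequenced, so more cells of a type and more RNA per cell cannot be told apart either.

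Neutrophils are short-lived leukocytes that are made in the bone marrow under the cytokine G-CSF, circulate in blood and enter tissues at sites of infection. They carry proteins in successive kinds of granules. Azurophil granules, filled in early precursors, hold myeloperoxidase and neutrophil elastase, while specific granules, filled later, hold lactoferrin. Mature neutrophils have large amounts of calgranulins in the cytosol and kill microbes with an NADPH oxidase. Calgranulins are small calcium-binding S100 proteins that sequester metal ions and, once released, act on receptors such as TLR4 and AGER. Monocytes make them as well, and S100A8 and S100A9 can be induced in epithelia.

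The deposited values were FPKM (fragments scaled to transcript length and to the mapped fragments of a library), a level per length that can be compared between genes. The tissue label fitted the markers measured, with SFTPC, the surfactant protein of alveolar type II cells, between 3171 and 8790 FPKM. SCGB1A1, a club cell gene, stood at 0.213 FPKM in Neonatal2 against 62.2 and 62.0 FPKM in the other neonatal lungs and 99.8 to 139 FPKM in the fetal lungs. The median FPKM over all mRNAs lay between 4.99 and 6.11 in the 6 samples, and between 3.03% and 5.68% of the mRNAs were listed at 0. The summed FPKM was 339491 to 471220 in the fetal and 491548 to 777982 in the neonatal samples. FPKM levels and sums over lists are therefore not on an equal total between the groups. Read counts were not given, so the depth behind single values is unknown and errors are the spread between the 3 animals of each group. Differences were fitted in limma on log2(FPKM + 1) over all mRNAs, with Benjamini-Hochberg adjustment, and genes at or under an adjusted p of 0.05 were taken as past the threshold. Such differences understate the change of genes with low FPKM. The median difference of all mRNAs, neonatal minus fetal, was 0.13, and it became -0.0090 after scaling by median-of-ratios size factors.

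Of the 7 measured genes, 4 rose in the neonatal group (S100A8, S100A9, S100A12 and LTF), none fell and 3 (CSF3R, NCF1 and ELANE) were not past the threshold. Over all mRNAs, 1001 or 6.87% were past the threshold in either direction and 5.41% were past it with a rise. Rises made up 78.8% of these calls, against 66.0% after median-of-ratios scaling and 57.9% after quantile normalization, and under both scalings 4 of the 7 genes were past the threshold. In 6 of the 7 genes all neonatal values exceeded all fetal ones, which held for 20.9% of all mRNAs. S100A9 and S100A12 could be matched only through a list of genes that the study had called changed on these same samples, so both were bound to be found changed and are not independent evidence beside these shares. Of the 5 genes matched without that list, 2 rose (S100A8 and LTF) and in 4 all neonatal values exceeded all fetal ones. The median difference of the 7 genes was 1.58 on the log2(FPKM + 1) scale.

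**Figure D1:**
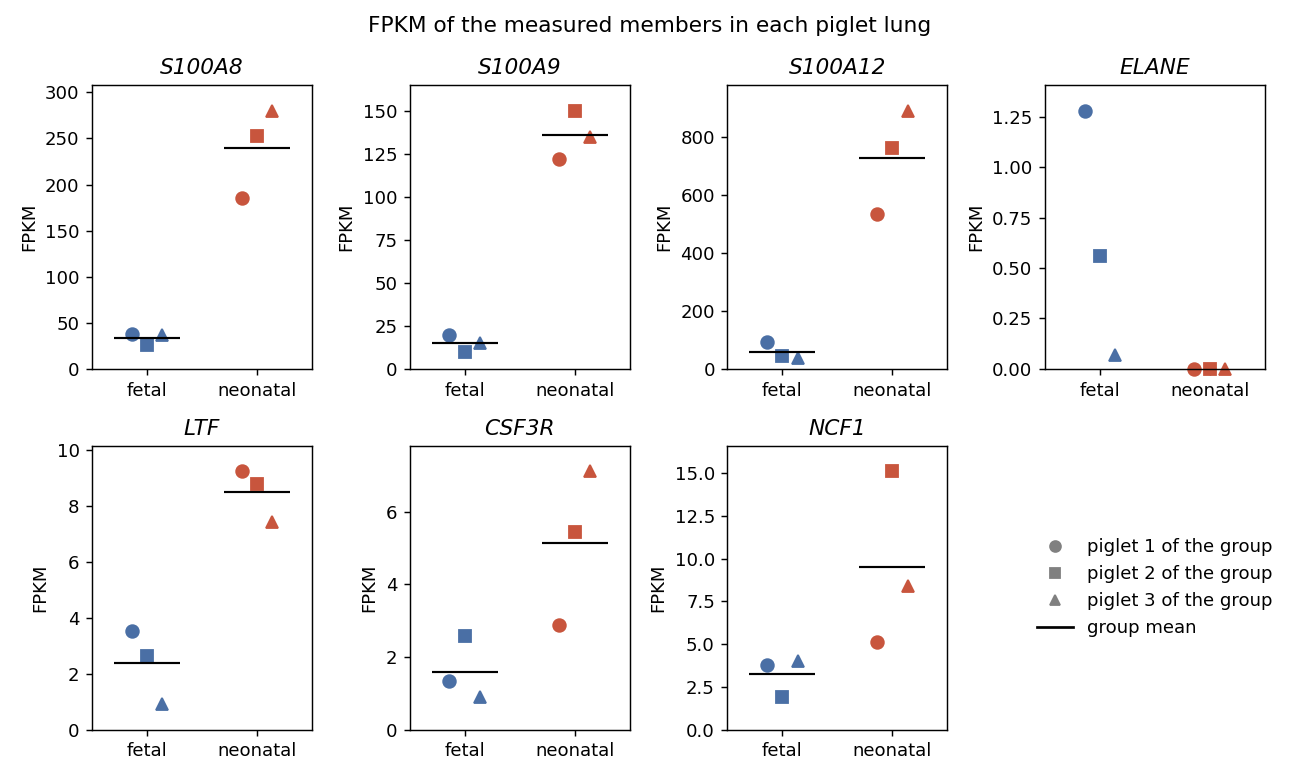
FPKM of the 7 measured genes in each of the 6 piglets, with a linear axis from 0 in each panel; symbols mark the piglets of a group, and lines mark group means (none for ELANE, which was listed at 0 in every neonatal sample). Neonatal values lie above fetal values in every panel except that of ELANE.

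S100A8 (ENSSSCG00000006590) encodes the light subunit of calprotectin, the heterodimer that binds zinc and manganese. It was measured at 37.7, 25.7 and 36.7 FPKM in Fetal1 to Fetal3 in turn, and at 185, 253 and 280 FPKM in Neonatal1 to Neonatal3. The fetal values lay close together, and the lowest neonatal value was 4.92 times the highest fetal value. The mean went from 33.4 ± 6.68 to 239.5 ± 48.8 FPKM (SD, n = 3 each), a log2 difference of 2.81 (limma, standard error 0.25, adjusted p = 0.00254).

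S100A9 (ENSSSCG00000006588), the heavy subunit of calprotectin, had 19.9, 9.81 and 15.0 FPKM in the fetal lungs and 122, 150 and 135 FPKM in the neonatal lungs. Its neonatal values were the most even among the calgranulins, with the highest at 1.23 times the lowest. The mean rose 9.12-fold, from 14.9 ± 5.05 to 135.8 ± 14.1 FPKM (SD, n = 3 each); the log2 difference was 3.15 (limma, standard error 0.26, adjusted p = 0.00197).

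S100A12 (ENSSSCG00000006589), also called calgranulin C, was identified by the study's name for this identifier, while the reference gene table gives the symbol to another identifier (ENSSSCG00000032857) that has no row here. The row had 94.3, 43.1 and 37.0 FPKM in the fetal lungs and 532, 761 and 889 FPKM in the neonatal lungs. Fetal1 stood above the other fetal lungs, and Neonatal1 was the lowest neonatal sample, as for S100A8 and S100A9. The mean rose 12.5-fold, from 58.1 ± 31.5 to 727 ± 181 FPKM (SD, n = 3 each); the log2 difference was 3.72 (limma, standard error 0.40, adjusted p = 0.00435). Among all mRNAs, this log2 difference ranked 27th from the largest rise, that of S100A9 ranked 54th and that of S100A8 ranked 84th. By FPKM, S100A12 was at percentile 91.7 to 96.5 of all mRNAs in the fetal lungs and at 99.0 to 99.1 in the neonatal lungs. All 3 calgranulins stayed past the threshold whichever sample was left out, where their adjusted p lay between 0.0127 and 0.0441.

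The 3 calgranulin genes follow each other directly in the RefSeq table of the later pig assembly Sscrofa11.1, in the order S100A8, S100A12 and S100A9. Their summed level was 152, 78.5 and 88.6 FPKM in the fetal lungs and 839, 1164 and 1304 FPKM in the neonatal lungs. S100A12 made up 62.1%, 54.8% and 41.7% of this sum in Fetal1 to Fetal3 and 63.4%, 65.4% and 68.2% in Neonatal1 to Neonatal3. The ratio of S100A12 to S100A8 in a sample was 2.50, 1.68 and 1.01 in the fetal group, and 2.87, 3.01 and 3.17 in the neonatal group. The neonatal ratios were close to each other and all above the fetal ones, a difference of 0.90 in the log2 ratio (two-sided exact permutation test, p = 0.1, which is the lowest that 3 animals against 3 allow; 0.25 adjusted over 5 ratios). For S100A9 to S100A8 the log2 ratio differed by 0.40 (two-sided exact permutation test, p = 0.2) and for S100A12 to S100A9 by 0.50 (two-sided exact permutation test, p = 0.3), and in both the groups overlapped. Without Fetal3 the difference was 0.56 for S100A12 to S100A8 and 0.20 for S100A12 to S100A9. S100A9 and S100A12, unlike S100A8, were matched only through the study's list of genes changed on these samples. A rise of either relative to S100A8 was thus favoured by that selection and is not independent evidence.

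**Figure D2:**
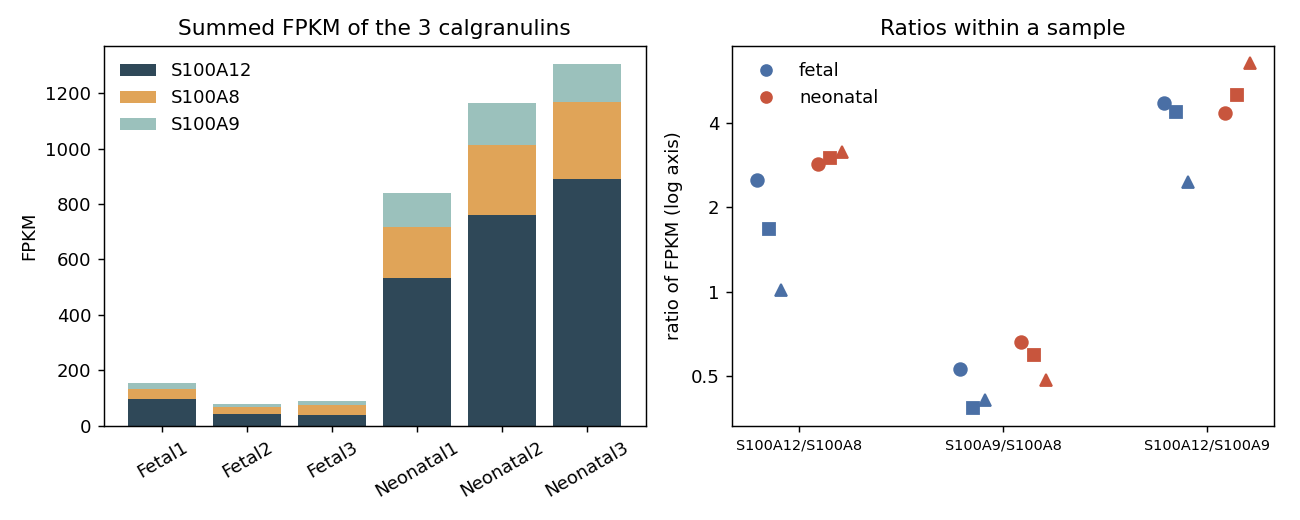
Left, summed FPKM of the 3 calgranulins in each sample, stacked by gene from 0; right, ratios of FPKM between calgranulins within a sample on a log axis, with circles, squares and triangles for samples 1, 2 and 3 of a group. The neonatal sums lie between 839 and 1304 FPKM and the fetal sums between 78.5 and 152 FPKM, and the groups separate only for the ratio of S100A12 to S100A8.

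LTF (ENSSSCG00000029879) encodes lactoferrin, the iron-binding protein of specific granules, which glandular epithelia secrete too. It had 3.54, 2.64 and 0.927 FPKM in the fetal lungs and 9.23, 8.79 and 7.42 FPKM in the neonatal lungs. Fetal3 was the lowest fetal sample, and unlike the calgranulins LTF was highest in Neonatal1 within its group. The mean went from 2.37 ± 1.33 to 8.48 ± 0.941 FPKM (SD, n = 3 each); the log2 difference was 1.58 (limma, standard error 0.32, adjusted p = 0.0328). This call rested on the full set of samples: the adjusted p was 0.0542 without Fetal1, 0.118 without Fetal2, 0.0822 without Neonatal1, 0.117 without Neonatal2 and 0.104 without Neonatal3, and it was past the threshold only without Fetal3.

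ELANE (ENSSSCG00000029130) encodes neutrophil elastase, a protease of azurophil granules whose mRNA is made mainly in promyelocytes. It had 1.28, 0.562 and 0.0710 FPKM in Fetal1, Fetal2 and Fetal3 and was listed at 0 in every neonatal sample. The gene entered the table, which required FPKM above 0.5 in a sample, through Fetal1 and Fetal2 alone, and its adjusted p was 0.237 (limma).

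CSF3R (ENSSSCG00000025795) encodes the receptor of G-CSF, carried by neutrophils and their precursors. It had 1.33, 2.58 and 0.888 FPKM in the fetal lungs and 2.89, 5.45 and 7.11 FPKM in the neonatal lungs. The lowest neonatal value was 1.12 times the highest fetal value. Means of 1.60 ± 0.878 and 5.15 ± 2.13 FPKM (SD, n = 3 each) gave a log2 difference of 1.23 with a 95% interval of 0.41 to 2.05 (limma, adjusted p = 0.0846).

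NCF1 (ENSSSCG00000007722) encodes p47phox, the cytosolic organizer of the phagocyte NADPH oxidase. It had 3.81, 1.90 and 4.02 FPKM in the fetal lungs and 5.14, 15.1 and 8.39 FPKM in the neonatal lungs, with Neonatal2 well above the others. Means of 3.24 ± 1.17 and 9.53 ± 5.05 FPKM (SD, n = 3 each) gave a log2 difference of 1.24 with a 95% interval of 0.35 to 2.14 (limma, adjusted p = 0.103).

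**Figure D3:**
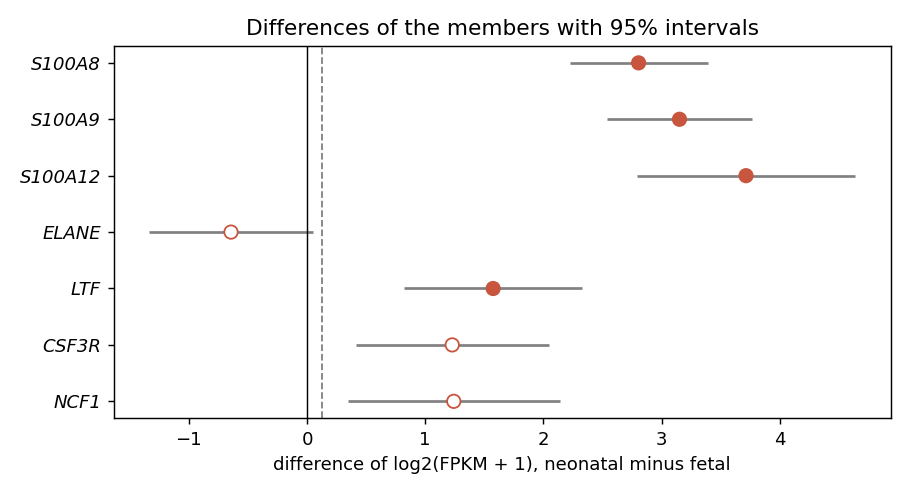
Difference of log2(FPKM + 1), neonatal minus fetal, for the 7 measured genes, with limma's 95% intervals; filled points are past an adjusted p of 0.05, and the dashed line is the median of all mRNAs at 0.13. The intervals of the 3 calgranulins start at 2.22 or higher and that of ELANE reaches across 0.

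In the neonatal lungs the levels followed the order S100A12, S100A8, S100A9, NCF1, LTF, CSF3R and ELANE. The ranges of NCF1 and LTF overlapped there, as did those of NCF1 and CSF3R, while the other neighbours in this order were apart. In the fetal lungs S100A12 and S100A8 overlapped, with S100A9 below both, and NCF1, LTF and CSF3R overlapped with each other at a few FPKM, with ELANE reaching into the ranges of LTF and CSF3R. CSF3R lay at percentile 17.7 to 32.7 of all mRNAs in the fetal lungs and at 32.7 to 54.2 in the neonatal lungs. The ratio of S100A8 to CSF3R was 28.3, 9.94 and 41.3 in the fetal lungs and 64.2, 46.4 and 39.4 in the neonatal lungs, and the groups overlapped (two-sided exact permutation test, p = 0.2; difference of 1.11 in the log2 ratio, and 0.52 without Fetal2). The ratio of S100A8 to NCF1 was 9.90, 13.5 and 9.12 in the fetal lungs and 36.1, 16.8 and 33.4 in the neonatal lungs, all of them higher (two-sided exact permutation test, p = 0.1, the lowest possible, and 0.25 adjusted over the 5 ratios; difference of 1.35 in the log2 ratio).

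Other genes of the neutrophil pathway and markers of other cells were read from 17 lists with 173 entries. Only 91 entries, or 89 different genes, carried a matched symbol. The rest were not analysed here, among them genes named only in the study's list of changed genes. Of these 89 genes, 14 rose and 1 fell, against 5.41% of all mRNAs with a rise and 6.87% past the threshold in either direction; with 3 to 9 genes a list, a single call in a list is no more than a description of that gene. Some granulocyte genes used in other species, such as the chemokine receptor CXCR2, carried no matched symbol and were not analysed here.

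Of the other azurophil granule genes, 1 of 6 measured rose and 5 were not past the threshold. CTSC, the protease that activates the serine proteases of these granules and is expressed in many tissues, went from 29.2 ± 3.31 to 62.6 ± 8.32 FPKM (SD, n = 3 each; limma, adjusted p = 0.0203). PRTN3, the gene of proteinase 3 and made like ELANE in promyelocytes, was listed at 0 in Fetal2, Fetal3, Neonatal1 and Neonatal2 and stood at 0.825 FPKM in Fetal1 and 0.686 FPKM in Neonatal3. BPI, an endotoxin-binding granule protein, had 0.731 to 1.95 FPKM before birth and 1.40 to 4.68 FPKM after it (limma, adjusted p = 0.275).

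Among 9 other measured genes of specific and gelatinase granules, 1 rose, 1 fell and 7 were not past the threshold. In 6 of the 9 all neonatal values exceeded all fetal ones, against 20.9% of all mRNAs. LYZ, the gene of lysozyme, rose from 2.24 ± 0.0361 to 11.8 ± 2.90 FPKM (SD, n = 3 each), a log2 difference of 1.96 (limma, adjusted p = 0.00471). LCN2, the siderophore-binding lipocalin that neutrophils store and epithelia secrete, moved the other way, from 86.2, 53.1 and 55.8 FPKM to 16.2, 24.1 and 22.9 FPKM, a log2 difference of -1.57 (limma, adjusted p = 0.0157). CRISP3, a specific granule protein, had 3.15 to 6.51 FPKM in the fetal and 7.91 to 21.6 FPKM in the neonatal lungs (limma, adjusted p = 0.0854). CHI3L1 had 77.7 to 193 FPKM in the fetal and 247 to 298 FPKM in the neonatal lungs (limma, adjusted p = 0.0916). ARG1 had 2.77 to 3.35 FPKM and 4.47 to 7.04 FPKM (limma, adjusted p = 0.07), and neither gene overlapped between the groups. MMP8, the neutrophil collagenase, had 0.131 to 0.197 FPKM and 0.189 to 1.65 FPKM, with overlap (limma, adjusted p = 0.229). MMP8 was above 0.5 FPKM only in Neonatal1 and Neonatal3. ADAM8, a membrane protease of granulocytes, stood at 599 FPKM in Neonatal1 but at 2.84 and 0.988 FPKM in Neonatal2 and Neonatal3 and below 1 FPKM in the fetal lungs (limma, adjusted p = 0.303).

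Among the oxidase partners of NCF1, NCF4, the p40phox subunit, rose from 4.77 ± 1.64 to 19.1 ± 8.68 FPKM (SD, n = 3 each), a log2 difference of 1.72 (limma, adjusted p = 0.0433). RAC2, the GTPase of the complex, had 2.15 to 3.49 FPKM and 2.65 to 9.12 FPKM (limma, adjusted p = 0.392).

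Of 6 chemoattractant and adhesion receptor genes, 2 rose and 4 were not past the threshold. CD177, a surface glycoprotein restricted largely to neutrophils, had 2.00, 0.908 and 0.101 FPKM in the fetal lungs and 9.22, 3.67 and 7.62 FPKM in the neonatal lungs, a log2 difference of 2.01 (limma, adjusted p = 0.0365), a call lost with a pseudocount of 0.1 in place of 1. ITGAL, the integrin chain of LFA-1 found on most leukocytes, rose from 4.80 ± 1.68 to 14.5 ± 2.80 FPKM (SD, n = 3 each; limma, adjusted p = 0.0219). ITGAM, the chain of Mac-1 on neutrophils and monocytes, overlapped between the groups at 0.479 to 1.17 FPKM and 1.00 to 2.88 FPKM (limma, adjusted p = 0.212).

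Of 3 measured ligands, CXCL2, a chemokine that attracts neutrophils, rose from 0.586, 0.206 and 0.0962 FPKM to 2.43, 3.99 and 3.66 FPKM (log2 difference 1.75, limma, adjusted p = 0.00960). CSF3, the gene of G-CSF and thus the ligand of CSF3R, had 1.30, 0.180 and 0.0661 FPKM in the fetal lungs, was at 0.516 and 0.0282 FPKM in Neonatal1 and Neonatal3 and was listed at 0 in Neonatal2. Among 5 measured calgranulin receptor genes and their partners, none was past the threshold in limma. TLR4 had 5.29 to 9.98 FPKM and 10.0 to 21.6 FPKM without overlap (limma, adjusted p = 0.114), and AGER, abundant in alveolar type I cells, overlapped at 406 to 767 FPKM and 396 to 724 FPKM (limma, adjusted p = 0.948). LY96, on the same list, went the other way without overlap, from 14.6 ± 2.17 to 7.84 ± 3.14 FPKM (SD, n = 3 each). Its log2 difference was -0.886 (limma, adjusted p = 0.133). Of the 5 genes, 4 had a higher and 1 a lower neonatal mean. The study, which tested reads with Cuffdiff, called TLR4 significantly higher in the neonatal lungs. It also reported PCR for the changed genes it discussed.

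Of 4 transcription factor genes, SPI1, whose product PU.1 is required for myeloid cells, rose from 14.9, 11.3 and 15.9 FPKM to 24.0, 35.8 and 39.3 FPKM (log2 difference 1.16, limma, adjusted p = 0.0329). CEBPE, needed for specific granules, had 0.0602 to 0.209 FPKM and 0.439 to 1.03 FPKM (limma, adjusted p = 0.126). It was above 0.5 FPKM, the limit for entering the table, only in Neonatal1 and Neonatal2. Of 5 leukotriene and prostanoid enzymes, ALOX5, the 5-lipoxygenase of myeloid cells, rose from 1.27 ± 0.465 to 3.99 ± 1.22 FPKM (SD, n = 3 each; limma, adjusted p = 0.0446), which was 0.0549 after median-of-ratios scaling and 0.0584 after quantile normalization.

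Of 4 other measured S100 genes, S100A10, the annexin A2 partner, rose from 126.5 ± 26.9 to 303 ± 63.6 FPKM and S100A14, an epithelial member, from 23.0 ± 4.55 to 54.0 ± 16.1 FPKM (SD, n = 3 each; limma, adjusted p = 0.0376 and 0.0382). Both calls were lost under scaling, at 0.0535 and 0.0617 with median-of-ratios size factors and at 0.143 and 0.0811 with quantile normalization. Their log2 differences were 1.25 and 1.18, against 2.81 for S100A8, which was matched in the same way. S100A9 and S100A12 reached up to 3.72 but were matched only through the study's list of changed genes. Other S100 genes named only in that list were left out, so these 2 are not on an equal selection with them.

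Of the 15 calls on these lists, LYZ and VCAN stayed past the threshold whichever sample was left out, and CD177, S100A10, S100A14 and ALOX5 were not past it in any of these fits. Without Fetal1, Fetal2 or Fetal3 there remained 6, 2 and 3 of the 15 calls, and without Neonatal1, Neonatal2 or Neonatal3 there remained 11, 3 and 2, all in the direction given above.

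**Figure D4:**
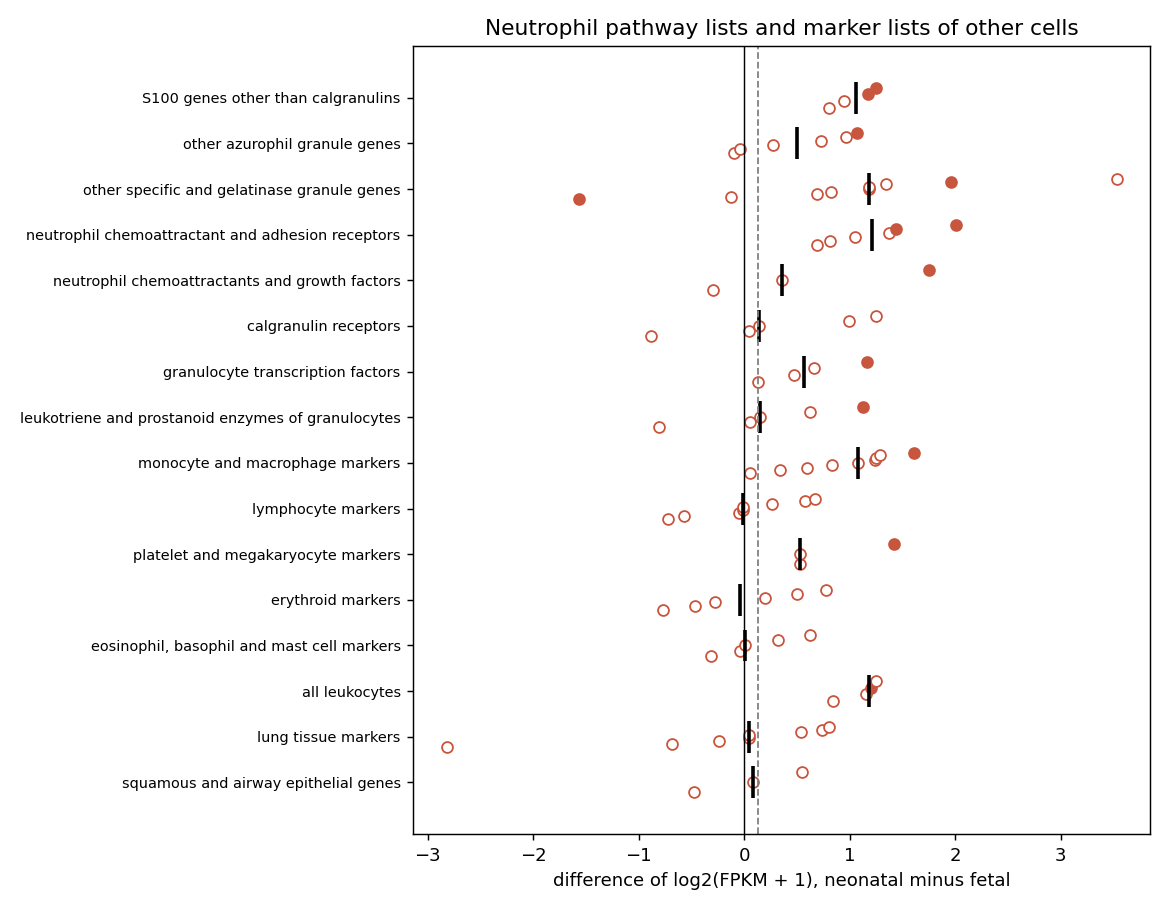
Difference of log2(FPKM + 1), neonatal minus fetal, for each measured gene of the lists other than the oxidase subunits; filled points are past an adjusted p of 0.05, black bars are list medians and the dashed line is the median of all mRNAs at 0.13. The medians of the leukocyte, macrophage, other S100, specific and gelatinase granule, and chemoattractant and adhesion receptor lists lie above 1. Those of the lymphocyte and erythroid lists lie near 0.

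Some markers of other cells were higher after birth as well. All 9 measured monocyte and macrophage markers had a higher neonatal mean. Their log2 differences ran from 0.057 to 1.61 with a median of 1.08, against a median of 0.13 over all mRNAs. In 4 of the 9 all neonatal values exceeded all fetal ones, against 20.9% of all mRNAs. Only VCAN, a proteoglycan of monocytes and stromal cells, was past the threshold (limma, adjusted p = 0.00669). The summed level of this list ranged from 285 to 672 FPKM in the fetal and from 533 to 1220 FPKM in the neonatal lungs. MARCO and C1QA, the largest parts of this sum, overlapped between the groups (limma, adjusted p = 0.188 and 0.386). CD14, the monocyte co-receptor for endotoxin, had 9.89 to 26.4 FPKM and 30.5 to 61.1 FPKM (limma, adjusted p = 0.120). Of 4 genes shared by all leukocytes, LCP1, an actin-bundling protein, rose from 9.23 ± 2.87 to 22.2 ± 3.82 FPKM (SD, n = 3 each; limma, adjusted p = 0.0334), and the sum of the list was 51.8 to 86.5 FPKM and 99.5 to 197 FPKM. PTPRC, the CD45 antigen, had 6.37 to 8.93 FPKM and 9.56 to 17.7 FPKM (limma, adjusted p = 0.102).

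Of 3 platelet genes, TUBB1, the tubulin of platelets, rose from 1.59, 1.19 and 0.847 FPKM to 6.90, 3.98 and 4.11 FPKM (log2 difference 1.42, limma, adjusted p = 0.0217), and the sum of the list was 2.57 to 4.74 FPKM in the fetal and 7.96 to 11.3 FPKM in the neonatal lungs. None of 8 lymphocyte, 6 erythroid or 5 eosinophil, basophil and mast cell markers was past the threshold in limma. Of the 8 lymphocyte markers, 3 had a higher and 5 a lower neonatal mean. Among them CD79B had 1.80 to 2.11 FPKM in the fetal and 0.184 to 1.19 FPKM in the neonatal lungs, without overlap (limma, adjusted p = 0.171). The erythroid sum, nearly all of it HBB, was 1263 to 2706 FPKM in the fetal and 971 to 1539 FPKM in the neonatal lungs. The study, with Cuffdiff, called HBB significantly higher in the fetal lungs. The lymphocyte sum was 10.1 to 13.4 FPKM in the fetal and 7.88 to 21.4 FPKM in the neonatal lungs. The sum of the 5 eosinophil, basophil and mast cell markers was 12.6 to 16.8 FPKM and 15.2 to 19.7 FPKM, and that of 3 squamous and airway epithelial genes, of which none was past the threshold, was 5.46 to 8.47 FPKM and 5.75 to 6.87 FPKM. Of 8 lung tissue markers none was past the threshold, and their sum was 5091 to 6028 FPKM and 6256 to 11517 FPKM. SFTPC was the largest part of this sum, at 3171 to 3902 FPKM and 4233 to 8790 FPKM. Of the 8 genes, 5 had a higher and 3 a lower neonatal mean. The part of the cells marked by these lists in the calgranulin values was not tested.

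Set against other leukocyte genes of the same sample, a comparison chosen after the values were seen and given without a test, the summed calgranulins were higher after birth relative to 4 genes but not relative to CD177. Their sum was 12.3 to 17.0 times the FPKM of PTPRC in the fetal lungs and 73.5 to 87.8 times in the neonatal lungs. Relative to CD14 it was 3.46 to 7.94 times and 19.1 to 27.5 times, and relative to ITGB2, the common chain of the leukocyte integrins, 4.72 to 6.65 times and 20.0 to 31.4 times. Relative to LYZ it was 35.7 to 67.7 times and 79.0 to 110 times. The groups did not overlap in these 4 ratios. S100A9 and S100A12, part of this sum, were matched only through the study's list of changed genes. A change of the sum was thus in part bound to be found and is not independent evidence. Relative to CD177 the sum was 75.9, 86.5 and 877 times in the fetal lungs and 91.1, 317 and 171 times in the neonatal lungs, and the groups overlapped, with CD177 at 0.101 FPKM in Fetal3.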

How the data were processed

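Lung RNA of 3 fetal and 3 neonatal piglets was sequenced, 1 library per animal. The authors mapped reads to Sscrofa10.2 with TopHat2 2.1.0 and deposited FPKM per gene from Cufflinks 2.2.1, keeping mRNAs with FPKM above 0.5 in at least 1 sample, which all 14579 rows met. The deposited lncRNA values were not used here. All 6 value columns matched a sample by name. Symbols came from a reference table for 9478 identifiers, and S100A9 and S100A12 from the study's list of changed genes. The reference table held no S100A9 and gave S100A12 another identifier, which had no row. Other genes named only in that list were left out of the lists, since it names changed genes alone.

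Values were taken as log2(FPKM + 1). Groups were compared with limma 3.58.1 under R 4.3.3, using its mean-variance trend over all mRNAs, adjusted by Benjamini-Hochberg. The fit was also run on simulated normal values with added shifts, which checked only that the mean size of the shift was returned. Ratios used exact permutation tests (scipy 1.17.1; Python 3.11.15). The rule named all members and, from each list, genes past the threshold and up to 4 more with the highest mean FPKM, and the 5 genes most like the calgranulins. MMP8 and SCGB1A1, outside the rule, were named after their values were seen. Members and lists were chosen with earlier results of these data known. Alternatives were pseudocounts of 0.5 and 0.1, median-of-ratios scaling, quantile normalization, a filter at 1 FPKM in 3 or more samples, a fit without the trend, a replicate block, and leaving out each sample. Sequences and promoter motifs were not analysed here. A result on 1 list gene is not reported here.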

Additional observations from a re-analysis of the deposited data

How the results depend on the processing

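The 3 calgranulins kept their direction and stayed past the threshold under all 13 alternatives, with log2 differences from 2.42 to 2.98 for S100A8, 2.87 to 3.38 for S100A9 and 3.20 to 4.12 for S100A12. CSF3R, NCF1 and ELANE stayed outside the threshold under each alternative that gave a value (ELANE gave none under the stricter FPKM filter). LTF kept its direction, at 1.22 to 1.83 with a sample left out, and its call was lost in 5 of those 6 fits. With a sample left out, 196 to 944 mRNAs and 2 to 17 of the 89 list genes were past the threshold, against 1001 and 15.

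The replicate numbers do not pair the animals, which came from different sows, and the deviations of same-numbered samples correlated at -0.041, -0.0040 and 0. With the replicate block, 401 mRNAs, 5 of the 89 list genes and 4 of the 7 members were past the threshold.

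With median-of-ratios scaling, 0 of the other S100 genes and 0 of the leukotriene and prostanoid enzymes were past the threshold. With quantile normalization these counts were also 0 and 0. There, 1 gene of the calgranulin receptor list, 2 monocyte and macrophage markers and 1 erythroid marker were past the threshold. CD68 stood on both the receptor list and the macrophage list and was counted in each, so these are not all different genes. The other list counts kept their values under both scalings. The 5 ratios were recomputed only with a pseudocount of 1 and with each sample left out, and kept their direction there. The cause of these changes was not tested. The counts over all list genes together were added after seeing the data. Promoter motifs were not run. Without read counts, the precision of values below 1 FPKM, as for ELANE, is unknown.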

Other observations

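Across the 6 samples, the genes whose log2(FPKM + 1) followed the mean of the 3 calgranulins most closely, among 5293 other genes with a symbol and a mean of at least 5 FPKM, were MCM3, SEMA7A, MYO1F, SFRP1 and DNMT1. MCM3, a subunit of the replicative helicase, had a Pearson r of 0.998, with means of 2.45 ± 0.564 FPKM before and 18.0 ± 2.62 FPKM after birth (SD, n = 3 each). SEMA7A, a membrane-anchored semaphorin, went from 1.75 ± 0.828 to 15.7 ± 2.44 FPKM, and MYO1F, a myosin of immune cells, from 3.21 ± 0.553 to 10.7 ± 1.25 FPKM (SD, n = 3 each). SFRP1, a secreted Wnt antagonist, went from 2.96 ± 0.562 to 7.26 ± 0.842 FPKM, and DNMT1, the maintenance DNA methyltransferase, from 7.26 ± 1.25 to 18.3 ± 1.34 FPKM (SD, n = 3 each). The samples form the fetal and neonatal groups, so a shared course over samples and a shared difference between groups cannot be told apart, and 369 of the 5293 genes had a Pearson r of at least 0.95. By Pearson's r on FPKM without the log, 0 of these 5 genes were among the 5 closest. By Spearman's rho 186 genes tied at 1, so no 5 closest genes could be told apart. The 5 genes named here had a rho of 0.886 to 0.943.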
